A study of Mus musculus with 4 samples.

Results

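The TGF-β and BMP signalling genes described here are 53 genes of the mouse genome, chosen by symbol for their known roles in the pathway, with earlier results of these data known, out of 47729 genes measured by RNAseq. They hold 17 ligands, 12 receptors and co-receptors, 7 secreted antagonists, 4 latent TGF-β binding proteins, 8 Smads and 5 target genes. The samples were tumors of Lewis lung carcinoma (LLC) cells, a line from a mouse lung carcinoma, grown for 5 days under the skin of the back of syngeneic C57BL/6 mice. LLC-Chem tumors came from LLC cells transfected with pEFIN plasmids for chemerin, a secreted chemoattractant and adipokine that acts through the receptor CMKLR1. The encoded form, residues 1 to 157, is already active when secreted. The control LLC tumors were labelled wild type, while the study's text also describes cells carrying the empty vector. Transfected clones were picked under G418 selection, and how many clones the grafted line held is not given in the sources used here. Each group had 2 libraries, each from a pool of 3 whole tumors, so host vessels, leukocytes and stroma were sequenced with the tumor cells. The comparison between the groups addressed how the expression of chemerin by the grafted cells changed the tumor transcriptome.

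TGF-β family ligands are secreted dimers that bring together type I and type II receptor kinases at the cell surface. TGF-βs and activins mainly lead to phosphorylation of Smad2 and Smad3, and BMPs to that of Smad1, Smad5 and Smad9, all of which join Smad4 in the nucleus. TGF-β is secreted in a latent complex held in the matrix by Ltbp proteins, while BMPs and activins are held in check by secreted antagonists such as Grem1, Nog and Fst. In tumors the pathway is known for its action on vessels, fibroblasts, immune cells and epithelial plasticity.

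The fitted depth ran from 28470000 to 33990000 reads per pool, which sets the level given by 3 reads at 0.0883 to 0.105 RPM (reads mapped to genes, scaled to a total of 1000000 per pool). Rarres2, which encodes chemerin, read 102.2 and 98.2 RPM in the LLC pools, compared with 105.9 and 105.8 RPM in LLC-Chem. Both LLC-Chem pools were above both LLC pools, but the difference did not pass the test (log2 fold change 0.08 ± 0.09 SE, limma adjusted p = 0.541), so the chemerin transcript is no check of which pools carried the plasmid. Of the epithelial markers, Krt8 and Krt18 were present while Krt5, Krt14 and Epcam were at 0.2 RPM or below, and the lung epithelial markers Sftpc, Scgb1a1 and Nkx2-1 summed to 0.25 RPM at most, with Nkx2-1 at 0 in every pool. All 7 fibroblast markers were higher in LLC pool 2 than in LLC pool 1, with sums of 44300 and 23400 RPM, against 32700 and 29700 RPM in the LLC-Chem pools. Endothelial markers summed to 302 and 240 RPM in the LLC pools, compared with 88.7 and 54.0 RPM in LLC-Chem, with 8 of 10 called lower. Mural cell markers summed to 243 and 200 RPM against 77 and 53.4 RPM, with 5 of 7 called lower, and leukocyte markers to 3690 and 6590 RPM against 2970 and 1420 RPM, with 6 of 9 called lower. In such bulk samples, fewer cells of a type and less RNA per cell cannot be told apart.

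In LLC-Chem tumors 10 of the 46 testable members rose and 5 fell, so the pathway genes moved in both directions. The genes that rose were the ligands Bmp4, Gdf11 and Inha, the receptors Tgfbr3, Bmpr1a and Bmpr2, the latent binding proteins Ltbp3 and Ltbp4, the transducer Smad3 and the BMP target Id3. The genes that fell were the activin subunit Inhbb, the receptor Acvrl1, the antagonists Fst and Grem1, and Ltbp2. Over all 13694 genes tested, 9.54% were called higher and 13.5% lower in LLC-Chem, against 21.7% and 10.9% of the 46 members. With TMM scaling limma called 1583 genes higher and 1643 lower, against 1306 and 1848 here, and again 10 members higher and 5 lower. The median log2 fold change of these members was -0.08, with a range from -1.67 to 1.98, and that of all tested genes was -0.04. Here and below, changes are differences of log2(RPM + 0.5) between LLC-Chem and LLC, which understate the change of genes near 1 RPM, and a gene was called at an adjusted p under 0.05 (limma, two-sided, Benjamini-Hochberg over all tested genes). A p-value here measures only the spread between pools of 3 tumors, and with 2 pools against 2 an exact permutation test of a single gene cannot go below 0.33.

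The pools of each group did not overlap for 16 members higher and 19 members lower in LLC-Chem, while 11 overlapped. Over all tested genes 33.1% had both LLC-Chem pools above both LLC pools, and 39.3% had both below. The plot of RPM in each pool shows the members by role. With any 1 of the 4 pools left out, limma was left with a single residual degree of freedom and called no gene of the whole table, with 998 to 2359 genes higher and 1580 to 2823 lower at an unadjusted p under 0.05. The signs of the changes of the 15 called members did not turn in any of these fits.

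**Figure D1:**
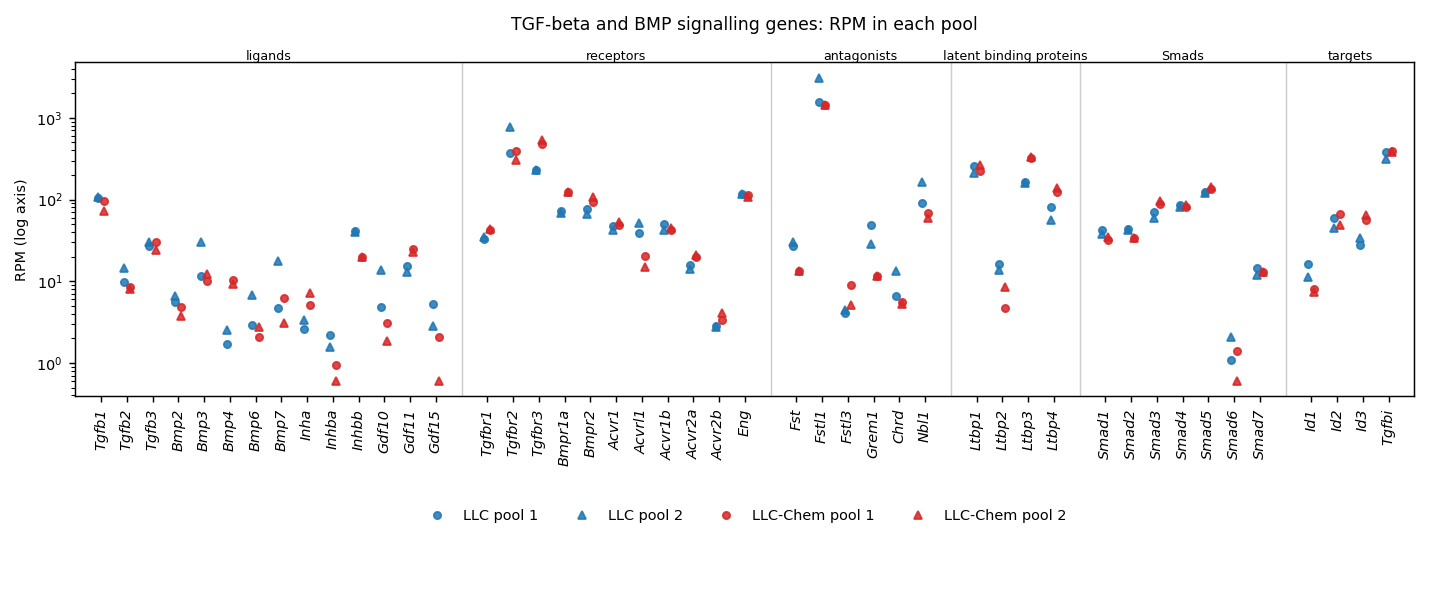
RPM on a log axis (y) of the tested members, ordered by role (x), with 1 point for each of the 2 LLC and 2 LLC-Chem pools. The LLC-Chem points of Bmp4 (10.2 and 9.20 RPM) stand above the LLC points (1.70 and 2.55 RPM), while those of Grem1 (11.5 and 11.4 RPM) stand below them (49.1 and 28.9 RPM).

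The promoters of 5 called members are shown because they cover a ligand, a receptor, a latent binding protein, an antagonist and a target, and because each kept its call in 10 of 15 alternative fits, losing it only where every gene above 0 was tested or a pool was left out. They are RefSeq sequences of build GRCm38.p6, printed 5′ to 3′ on the strand of the gene, from 250 bases before to 50 bases after the start site. Capitals mark matches, on either strand, to 4 short motifs: GTCTAGAC and CAGACA, known as elements bound by Smad3 and Smad4, GGCGCC, a GC-rich element bound by Smad1 and Smad5, and ACGTG, the core of the element bound by hypoxia-inducible factors. GTCTAGAC and GGCGCC read the same on both strands, and CACGTG holds ACGTG on both.
Bmp4 (chr14:46390620-46390919, minus strand): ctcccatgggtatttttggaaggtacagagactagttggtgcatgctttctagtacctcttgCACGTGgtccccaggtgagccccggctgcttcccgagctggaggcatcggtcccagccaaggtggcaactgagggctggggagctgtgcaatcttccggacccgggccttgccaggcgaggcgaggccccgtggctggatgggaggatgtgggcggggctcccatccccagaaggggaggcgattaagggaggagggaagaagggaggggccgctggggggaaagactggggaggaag
Bmpr1a (chr14:34502497-34502796, minus strand): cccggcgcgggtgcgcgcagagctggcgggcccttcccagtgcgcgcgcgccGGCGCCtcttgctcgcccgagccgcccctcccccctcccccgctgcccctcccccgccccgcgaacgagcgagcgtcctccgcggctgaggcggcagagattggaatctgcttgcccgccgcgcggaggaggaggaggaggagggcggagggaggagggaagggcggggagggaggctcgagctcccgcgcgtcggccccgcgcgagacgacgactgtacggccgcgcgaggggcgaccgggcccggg
Ltbp3 (chr19:5740650-5740949, plus strand): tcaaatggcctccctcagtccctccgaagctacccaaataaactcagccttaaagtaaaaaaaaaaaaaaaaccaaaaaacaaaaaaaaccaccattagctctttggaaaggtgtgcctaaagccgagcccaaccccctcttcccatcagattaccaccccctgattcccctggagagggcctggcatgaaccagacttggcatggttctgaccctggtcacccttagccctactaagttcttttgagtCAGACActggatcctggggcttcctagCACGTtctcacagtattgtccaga
Grem1 (chr2:113758599-113758898, minus strand): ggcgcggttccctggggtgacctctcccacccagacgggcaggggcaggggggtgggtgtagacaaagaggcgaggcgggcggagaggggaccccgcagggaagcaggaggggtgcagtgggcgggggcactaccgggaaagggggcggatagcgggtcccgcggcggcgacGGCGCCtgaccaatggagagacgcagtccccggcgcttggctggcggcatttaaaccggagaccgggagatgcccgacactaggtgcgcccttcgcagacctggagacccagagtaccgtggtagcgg
Id3 (chr4:136143572-136143871, plus strand): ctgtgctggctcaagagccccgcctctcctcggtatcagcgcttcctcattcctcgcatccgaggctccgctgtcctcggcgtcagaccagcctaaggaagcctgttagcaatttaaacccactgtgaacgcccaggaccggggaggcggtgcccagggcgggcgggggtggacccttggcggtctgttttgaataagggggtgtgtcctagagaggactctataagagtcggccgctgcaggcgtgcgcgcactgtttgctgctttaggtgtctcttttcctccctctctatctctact

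In the Bmp4 promoter, ACGTG began 188 bases before the start site on one strand and 187 bases before it on the other. GGCGCC began 198 bases before the start site of Bmpr1a and 78 bases before that of Grem1. The Ltbp3 promoter held CAGACA at the start site and ACGTG 26 bases after it, and the Id3 window held none of the 4 motifs.

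A promoter entry outside chromosome 18 was matched for 39 of the 53 members. These 39 members have 48 promoter entries, as some have several start sites. Entries on chromosome 18 were left out for the members, so Smad2, Smad4 and Smad7, which lie there, were not searched. GGCGCC was found in 16 of the 48 entries (33.3%), from 14 members, against 11.9% of all 32851 promoters of this length. The median GC content was 64.7% over the members' entries and 52.7% over all promoters, and among the 6218 promoters with a GC content of at least 64.7% the share with GGCGCC was 36.9%, against 50% of the 24 member promoters above the same limit. CAGACA was found in 8 of the 48 entries (16.7%, against 21.0% of all promoters) and ACGTG in 9 (18.8%, against 19.6%). GTCTAGAC was found in 1 of the 48 entries, that of Smad6 (2.08%, against 0.213%), 4 bases before its start site. By call, GGCGCC was found in 3 of the 9 members with a promoter that rose, 1 of the 3 that fell and 8 of the 23 that were not called. These are matches of letters and no measure of binding.

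Among the 14 testable ligands, Bmp4, Gdf11 and Inha rose and Inhbb fell, and the median log2 change was -0.62. Both LLC-Chem pools were below both LLC pools for 8 of the 14 and above them for 3. Bmp4, a BMP ligand with roles in mesoderm, vessel and epithelial differentiation (ENSMUSG00000021835, chr14:46383520-46390669, minus strand), read 1.70 and 2.55 RPM in the LLC pools, compared with 10.2 and 9.20 RPM in LLC-Chem. The groups did not overlap, and the means of 2.12 ± 0.601 and 9.72 ± 0.742 RPM (SD, n = 2) differed 4.58-fold. This was the largest increase among the members (log2 fold change 1.98 ± 0.23 SE, limma adjusted p = 0.0126). With each pool left out in turn, the change of Bmp4 lay between 1.74 and 2.21.

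Gdf11, a ligand closely related to myostatin, read 15.2 and 13.0 RPM in LLC, against 24.7 and 23.0 RPM in LLC-Chem. The LLC-Chem pools were 1.69-fold higher on average and did not overlap with LLC (log2 fold change 0.74 ± 0.15 SE, limma adjusted p = 0.0266). Inha, the inhibin α subunit, whose dimers with activin β subunits oppose activins, read 2.60 and 3.35 RPM in LLC, against 5.10 and 7.10 RPM in LLC-Chem. Its call was the closest to the threshold among the members (log2 fold change 0.92 ± 0.24 SE, limma adjusted p = 0.0487), and it was lost with a pseudocount of 0.1 (adjusted p = 0.0501) and with edgeR on the recovered reads (adjusted p = 0.0513).

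The activin β subunits had lower values in LLC-Chem. Inhbb (ENSMUSG00000037035, chr1:119415465-119422248, minus strand) read 41.0 and 39.7 RPM in LLC, against 19.7 and 19.9 RPM in LLC-Chem. Its pools differed little within each group, and the mean in LLC-Chem was 49.0% of that in LLC (log2 fold change -1.01 ± 0.11 SE, limma adjusted p = 0.0117). Inhba read 2.20 and 1.55 RPM in LLC, against 0.950 and 0.600 RPM in LLC-Chem, without overlap, but its difference did not pass the test (limma adjusted p = 0.0703). Per kilobase of exon, Inhbb was at 9.48 RPM and Inhba at 0.293 RPM in LLC.

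None of the 3 TGF-β ligands was called. Tgfb1 had the highest level per length of all ligands, 20.8 RPM per kilobase in LLC and 16.6 in LLC-Chem, against 8.48 and 8.0 for Tgfb3 and 2.11 and 1.43 for Tgfb2. Tgfb1 read 103.3 and 106.5 RPM in LLC, against 94.9 and 72.7 RPM in LLC-Chem (log2 fold change -0.33 ± 0.15 SE, limma adjusted p = 0.145). Tgfb2 read 9.79 and 14.6 RPM against 8.55 and 8.05 RPM (limma adjusted p = 0.15). The groups did not overlap for either gene, whereas those of Tgfb3 did, at 27.3 and 30.0 RPM in LLC, against 30.2 and 23.9 RPM in LLC-Chem. A missed threshold does not show that these genes were equal between the groups.

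The other testable BMP ligands had lower means in LLC-Chem, and limma called none of these 4. Bmp2 read 5.60 and 6.65 RPM in LLC, against 4.80 and 3.8 RPM in LLC-Chem (limma adjusted p = 0.151). Bmp6 read 2.90 and 6.80 RPM against 2.10 and 2.75 RPM (limma adjusted p = 0.191), and the groups overlapped for neither gene. Bmp3, which opposes the signal of other BMPs, read 11.7 and 30.3 RPM in LLC, against 10.1 and 12.2 RPM in LLC-Chem, and Bmp7 read 4.75 and 17.9 RPM against 6.30 and 3.05 RPM. For both, the highest value was that of LLC pool 2 and the groups overlapped. Per kilobase, Bmp4 was the lowest of Bmp2, Bmp3, Bmp4, Bmp6 and Bmp7 in LLC (0.945 RPM per kilobase, against 1.24 to 2.84) and the highest in LLC-Chem (4.32, against 0.621 to 1.51). The pools of Bmp4 overlapped with those of Bmp6 in LLC, and with those of none of the 4 in LLC-Chem.

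Gdf10 read 4.90 and 13.8 RPM in LLC, against 3.10 and 1.85 RPM in LLC-Chem (log2 fold change -1.60 ± 0.49 SE, limma adjusted p = 0.0678), and DESeq2 on the recovered reads gave an adjusted p of 0.00453. With each pool left out in turn, the change of Gdf10 lay between -2.30 and -0.89. Gdf15, a distant family member induced by cell stress, read 5.30 and 2.85 RPM in LLC, against 2.05 and 0.600 RPM in LLC-Chem (limma adjusted p = 0.0864). The groups did not overlap for either gene, and both spread widely within groups. Bmp5, Gdf5 and Gdf6 stayed under a mean of 1 RPM and were not tested. Gdf5 was at 0 in every pool, and Gdf6 read 2.55 RPM in LLC pool 2 and 0.600 RPM or less in the other 3 pools.

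Of 11 testable receptors, Tgfbr3, Bmpr1a and Bmpr2 rose and Acvrl1 fell, with a median log2 change of 0.35. Both LLC-Chem pools were above both LLC pools for 7 of the 11 and below them for 2. Tgfbr3, or betaglycan, a co-receptor that presents TGF-β and inhibin to the signalling receptors (ENSMUSG00000029287, chr5:107106570-107289629, minus strand), read 231.4 and 226.9 RPM in LLC, against 482.8 and 541.1 RPM in LLC-Chem. The groups stood well apart, with means that differed 2.23-fold (log2 fold change 1.16 ± 0.11 SE, limma adjusted p = 0.010). Tgfbr2, the type II TGF-β receptor, read 373.8 and 775.2 RPM in LLC, against 390.3 and 307.5 RPM in LLC-Chem, and its groups overlapped (limma adjusted p = 0.217). Per kilobase, Tgfbr2 was the highest of the receptors in LLC (70.2 RPM per kilobase, with pools at 45.7 and 94.7, against 35.0 for Tgfbr3). In LLC-Chem the order of the pair was the other way round, at 42.6 RPM per kilobase for Tgfbr2 and 78.2 for Tgfbr3, and the pools of the pair did not overlap within either group.

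Bmpr1a, a type I receptor for BMPs (ENSMUSG00000021796, chr14:34410734-34503341, minus strand), read 72.0 and 69.1 RPM in LLC, against 122.8 and 121.9 RPM in LLC-Chem. The gap between the groups far exceeded that within them (log2 fold change 0.79 ± 0.09 SE, limma adjusted p = 0.0126). Bmpr2, the type II BMP receptor, read 76.9 and 66.3 RPM in LLC, against 94.2 and 107.8 RPM in LLC-Chem (log2 fold change 0.50 ± 0.13 SE, limma adjusted p = 0.0441), and this call was lost when limma was fitted without a trend (adjusted p = 0.0792). Bmpr1b, a further type I BMP receptor, read 1.15 RPM or less in every pool and was not tested.

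Acvrl1, a type I receptor of endothelial cells that responds to circulating BMPs (ENSMUSG00000000530, chr15:101128522-101145336, plus strand), read 38.5 and 51.6 RPM in LLC, against 20.4 and 14.7 RPM in LLC-Chem. The mean in LLC-Chem was 39.0% of that in LLC, without overlap (log2 fold change -1.34 ± 0.22 SE, limma adjusted p = 0.0183). Eng, the co-receptor that works with Acvrl1 in endothelium, read 116.4 and 115.8 RPM in LLC, against 112.8 and 108.0 RPM in LLC-Chem. These pools did not overlap, but the difference was small and was not called (log2 fold change -0.07 ± 0.09 SE, limma adjusted p = 0.577). The 10 endothelial markers, whose sums are given above, were all lower in both LLC-Chem pools, with a median log2 change of -2.01 and none at 0 in all pools. Their part in the difference of Acvrl1 was not tested.

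The remaining receptors were not called by limma. Tgfbr1, the type I TGF-β receptor, read 32.6 and 34.8 RPM in LLC, against 42.3 and 43.7 RPM in LLC-Chem (log2 fold change 0.35 ± 0.11 SE, limma adjusted p = 0.0689). Among the activin receptors, Acvr2a read 15.9 and 14.2 RPM against 19.6 and 21.2 RPM (limma adjusted p = 0.0798, DESeq2 adjusted p = 0.0497), and Acvr2b read 2.85 and 2.75 RPM against 3.40 and 4.05 RPM (limma adjusted p = 0.243). Both LLC-Chem pools were above both LLC pools for these genes and for the BMP type I receptor Acvr1 (47.4 and 41.9 RPM against 48.2 and 53.2 RPM). Acvr1b, the type I activin receptor, overlapped, at 49.7 and 42.7 RPM in LLC, against 42.7 and 44.2 RPM in LLC-Chem.

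**Figure D2:**
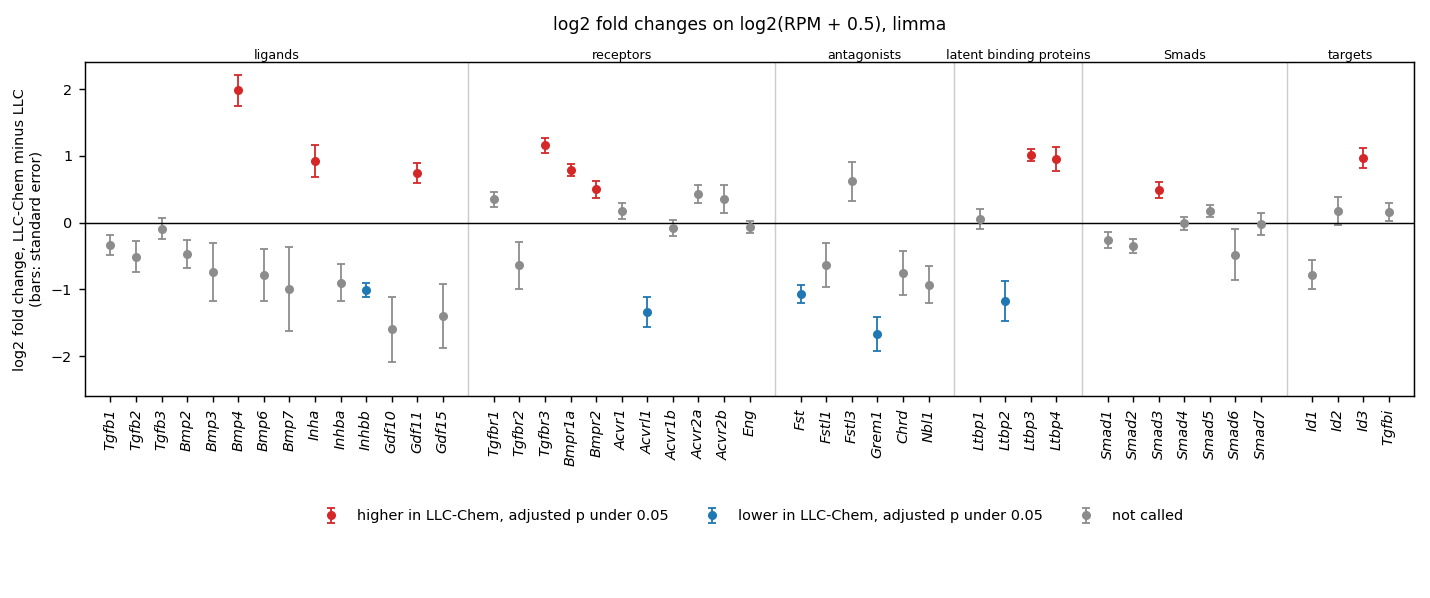
log2 fold change between LLC-Chem and LLC (y, differences of log2(RPM + 0.5)) of the 46 tested members by role (x), with bars for the standard error of the limma fit and colours for the call. The changes run from -1.67 for Grem1 to 1.98 for Bmp4, with 10 members called higher, 5 called lower and 31 not called.

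Among the 6 testable antagonists, Fst and Grem1 fell, with a median log2 change of -0.84. None rose by limma or edgeR at an adjusted p under 0.05 or by limma at an unadjusted one, and DESeq2 called 0 higher and 3 lower. Both LLC-Chem pools were below both LLC pools for 5 of the 6. Fst, or follistatin, which binds and neutralizes activins (ENSMUSG00000021765, chr13:114452290-114458951, minus strand), read 26.8 and 30.0 RPM in LLC, against 13.2 and 13.2 RPM in LLC-Chem. The LLC-Chem mean was 46.5% of the LLC mean, with no overlap (log2 fold change -1.07 ± 0.13 SE, limma adjusted p = 0.0130). Per kilobase, Fst was at 6.20 RPM in LLC, against 2.88 in LLC-Chem.

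Grem1, or gremlin, a secreted antagonist that binds Bmp2 and Bmp4 (ENSMUSG00000074934, chr2:113746164-113758646, minus strand), read 49.1 and 28.9 RPM in LLC, against 11.5 and 11.4 RPM in LLC-Chem. The LLC pools differed between themselves, yet the lower one was above both LLC-Chem pools, and the change was the largest fall among the called members (log2 fold change -1.67 ± 0.26 SE, limma adjusted p = 0.0166). Without LLC pool 1 the change of Grem1 was -1.30, and without LLC pool 2 it was -2.05. Per kilobase, Grem1 was at 9.40 RPM in LLC, above the 0.945 RPM of Bmp4. In LLC-Chem, Grem1 was at 2.77 RPM per kilobase and Bmp4 at 4.32, and within neither group did the pools of the pair overlap.

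Fstl1, a secreted glycoprotein of the follistatin group, was the most abundant member per length, at 476 RPM per kilobase in LLC and 290 in LLC-Chem. It read 1570.4 and 3109.6 RPM in LLC, against 1420.0 and 1431 RPM in LLC-Chem (log2 fold change -0.63 ± 0.33 SE, limma adjusted p = 0.206). LLC pool 2 stood apart from the other 3 pools, and without it the change was -0.14. Nbl1, a BMP antagonist of the same family as Grem1, read 91.3 and 164.3 RPM against 68.4 and 59.6 RPM (log2 fold change -0.93 ± 0.28 SE, limma adjusted p = 0.0606), and DESeq2 on the recovered reads gave an adjusted p of 0.00604. Over the 15 alternative fits the change of Nbl1 lay between -1.36 and -0.51, and DESeq2 alone called it. Chrd, or chordin, read 6.60 and 13.2 RPM in LLC, against 5.50 and 5.20 RPM in LLC-Chem (limma adjusted p = 0.143). For Nbl1 and Chrd too, LLC pool 2 held the highest value. Fstl3 read 4.05 and 4.50 RPM in LLC, against 9.04 and 5.15 RPM in LLC-Chem (limma adjusted p = 0.161), and 47.3% of its exon bases lie under Prss57 on the opposite strand, so its reads are uncertain where counting did not use strand. Nog, or noggin, was at or under 0.0999 RPM in every pool, about the level given by 3 reads.

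All 4 latent TGF-β binding proteins were testable, and Ltbp3 and Ltbp4 rose while Ltbp2 fell. Ltbp3, which binds latent TGF-β and is needed for its secretion in several tissues (ENSMUSG00000024940, chr19:5740904-5758532, plus strand), read 165.3 and 160.5 RPM in LLC, against 326.8 and 335.7 RPM in LLC-Chem. The means of 162.9 ± 3.39 and 331.3 ± 6.29 RPM (SD, n = 2) differed 2.03-fold, many times the gap between pools (log2 fold change 1.02 ± 0.09 SE, limma adjusted p = 0.0093). Ltbp4, which also binds latent TGF-β and takes part in elastic fibre assembly, read 80.7 and 56.8 RPM in LLC, against 123.0 and 140.2 RPM in LLC-Chem. Its groups did not overlap (log2 fold change 0.95 ± 0.18 SE, limma adjusted p = 0.0259), and a second entry with the symbol Ltbp4 was at 0 in every pool.

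Ltbp2, the member of this family that does not bind latent TGF-β, read 16.1 and 13.8 RPM in LLC, against 4.65 and 8.60 RPM in LLC-Chem. The groups did not overlap (log2 fold change -1.17 ± 0.30 SE, limma adjusted p = 0.0439). The change was -0.76 without LLC-Chem pool 1 and -1.58 without LLC-Chem pool 2, and the call was lost with edgeR on the recovered reads (adjusted p = 0.0567). Ltbp1 overlapped between groups, at 259.1 and 212.1 RPM in LLC, against 223.8 and 266.5 RPM in LLC-Chem (log2 fold change 0.06, limma adjusted p = 0.783). Per kilobase, the order in LLC was Ltbp1 (22.0 RPM), Ltbp3 (18), Ltbp4 (10.6) and Ltbp2 (1.83), and the pools of Ltbp1 and Ltbp3 did not overlap. In LLC-Chem it was Ltbp3 (36.5 RPM), Ltbp1 (22.9), Ltbp4 (20.4) and Ltbp2 (0.809), and the pools of Ltbp1 and Ltbp4 overlapped. The plot of levels per kilobase shows this change of order.

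**Figure D3:**
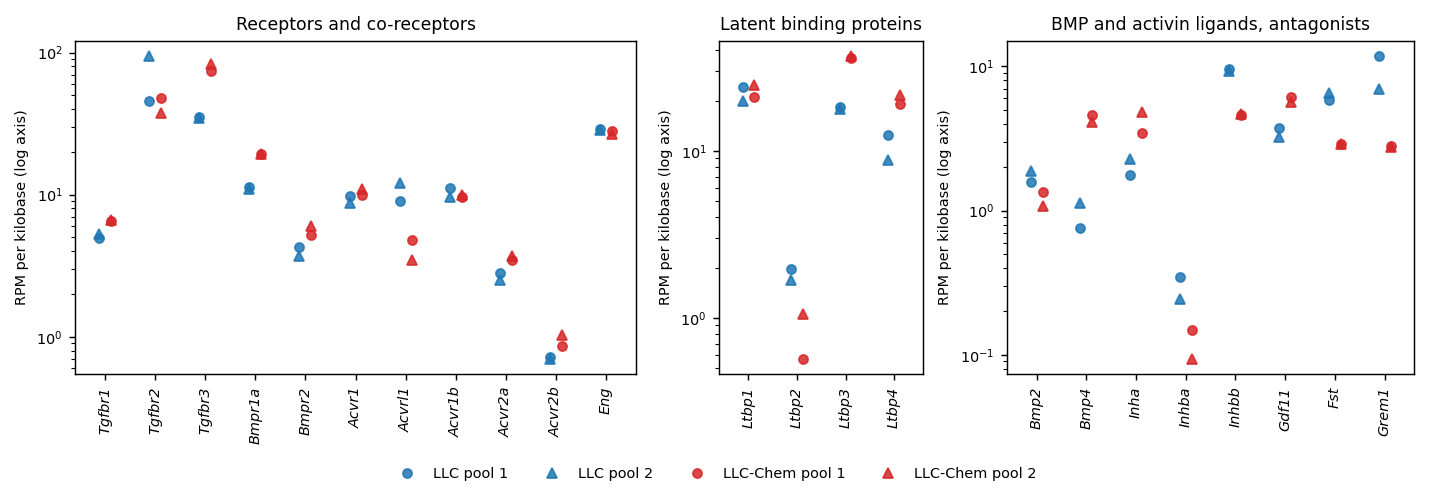
RPM per kilobase of exon on a log axis (y) in each of the 4 pools for the receptors, the latent TGF-β binding proteins, and chosen BMP and activin ligands and antagonists (x, in separate panels). Ltbp3 lies at 18.2 and 17.7 RPM per kilobase in LLC and 36.0 and 37.0 in LLC-Chem. Tgfbr3 and Tgfbr2 change places between the groups, as do Bmp4 and Grem1.

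Of the 7 testable Smads only Smad3 was called by limma, and the median log2 change was -0.02. At an unadjusted p under 0.05 limma had 1 Smad higher and 1 lower. Smad3, which carries TGF-β and activin signals (ENSMUSG00000032402, chr9:63646767-63757994, minus strand), read 70.9 and 60.0 RPM in LLC, against 87.1 and 96.9 RPM in LLC-Chem. It rose 1.41-fold without overlap (log2 fold change 0.49 ± 0.12 SE, limma adjusted p = 0.0447), and the call was lost when limma was fitted without a trend (adjusted p = 0.0794). Smad2, its partner in the same branch, read 43.6 and 42.2 RPM in LLC, against 33.5 and 33.5 RPM in LLC-Chem. The pools of Smad2 did not overlap and lay in the opposite direction, but the difference did not pass the test (log2 fold change -0.35 ± 0.10 SE, limma adjusted p = 0.0617). Per kilobase, Smad3 stood at 11.8 RPM in LLC and 16.6 in LLC-Chem, above Smad2 at 4.89 and 3.82.

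In the BMP branch, Smad1 read 41.8 and 38.3 RPM in LLC, against 31.9 and 35.0 RPM in LLC-Chem, and Smad5 read 122.7 and 120.8 RPM against 133.7 and 142.3 RPM. Neither was called (limma adjusted p = 0.160 and 0.204), although the groups of both did not overlap, Smad1 lower and Smad5 higher in LLC-Chem. The common partner Smad4 had the highest level of the Smads per length, 22.6 RPM per kilobase in LLC and 22.5 in LLC-Chem. It read 85.7 and 81.9 RPM in LLC, against 81.1 and 85.6 RPM in LLC-Chem, with overlap (log2 fold change -0.01, limma adjusted p = 0.957). The inhibitory Smads, which are induced by the pathway and block its receptors, overlapped as well, at 14.5 and 11.8 RPM against 12.8 and 12.9 RPM for Smad7 and at 1.10 and 2.05 RPM against 1.40 and 0.600 RPM for Smad6. Smad9 was at 0.450 RPM or less in every pool and was not tested.

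Of the 4 testable target genes, Id3 rose. None fell by limma or edgeR, with 1 lower at an unadjusted p under 0.05 by limma and 1 called lower by DESeq2. Id3, an inhibitor of basic helix-loop-helix transcription factors that BMPs induce (ENSMUSG00000007872, chr4:136143497-136145755, plus strand), read 27.6 and 33.8 RPM in LLC, against 55.6 and 65.0 RPM in LLC-Chem. The mean rose 1.97-fold and the groups did not overlap (log2 fold change 0.97 ± 0.15 SE, limma adjusted p = 0.0166). Id1, another BMP target of the same family, read 16.2 and 11.3 RPM in LLC, against 8.10 and 7.30 RPM in LLC-Chem. Its pools were lower in LLC-Chem without overlap, and just missed the threshold (log2 fold change -0.78 ± 0.22 SE, limma adjusted p = 0.0521), and DESeq2 on the recovered reads gave an adjusted p of 0.0168.

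Id2 overlapped between the groups, at 58.7 and 44.3 RPM in LLC, against 67.4 and 49.1 RPM in LLC-Chem (limma adjusted p = 0.552), and Id4 was at 0.750 RPM or less in every pool. Per kilobase, Id2 led the Id genes in LLC, at 21.1 RPM against 17.1 for Id3 and 11.9 for Id1, with overlap between the pools of Id2 and Id3. In LLC-Chem the order was Id3 (33.7 RPM per kilobase), Id2 (23.9) and Id1 (6.63), and no pools overlapped between them. Tgfbi, a matrix protein named for its induction by TGF-β and the highest of the targets per length (92.8 and 103 RPM per kilobase), read 386.4 and 313.2 RPM in LLC, against 398.0 and 380.0 RPM in LLC-Chem (limma adjusted p = 0.406). Its groups overlapped.

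LLC pool 2 stood apart for several members. Bmp3, Bmp6, Bmp7, Gdf10 and Tgfbr2 were each higher in LLC pool 2 than in LLC pool 1 by more than 1 log2 unit, which was 5 of 46 members (10.9%), against 238 of the 13694 tested genes (1.74%). Over all tested genes the median of this difference was -0.05. The ratio of pool 2 to pool 1 was 3.77 for Bmp7, 2.83 for Gdf10, 2.58 for Bmp3, 2.34 for Bmp6 and 2.07 for Tgfbr2. Limma and edgeR called none of these 5 genes between the groups, and DESeq2 called Gdf10 lower (adjusted p = 0.00453). The fibroblast markers had a median of 0.76 for the same difference, and all 7 were higher in pool 2. Among the endothelial and mural markers 1 of 10 and 0 of 7 were higher in pool 2. For leukocyte markers this was 5 of 9 (median 0.15), and for the erythroid markers, which are hemoglobin genes, 0 of 3 (median -1.18). Whether stroma took part in these differences was not tested. The 15 called members differed between the LLC pools by ratios from 0.59 for Grem1 to 1.5 for Bmp4.

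**Figure D4:**
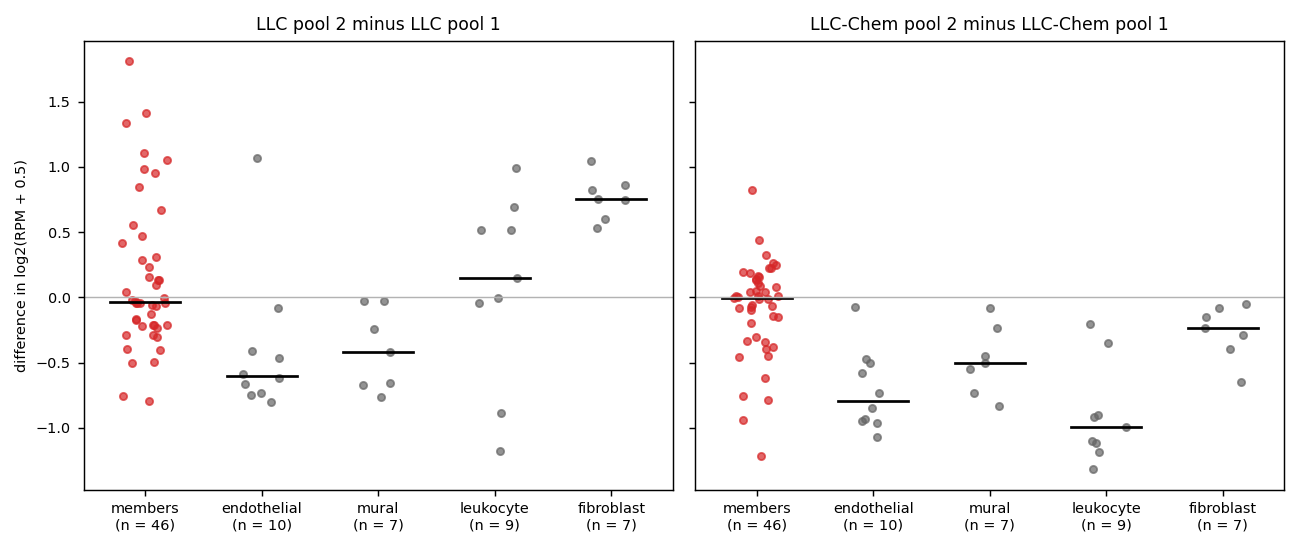
Differences in log2(RPM + 0.5) (y) between the pools of 1 group, in separate panels for LLC and LLC-Chem, for the tested members and the marker lists (x). In the LLC panel Bmp3, Bmp6, Bmp7, Gdf10 and Tgfbr2 lie above 1, and the 7 fibroblast markers all lie above 0 with a median of 0.76.

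A further 86 genes of the pathway were listed by role, of which 58 were testable. In this list 7 genes rose (12.1%) and 11 fell (19.0%), with a median log2 change of -0.09, against 9.54% and 13.5% of all tested genes. Among the co-receptors, Rgma and Rgmb, membrane-bound proteins that bind BMPs and strengthen their signal, rose together. Rgma read 33.1 and 39.1 RPM in LLC, against 115.2 and 106.2 RPM in LLC-Chem (log2 fold change 1.61 ± 0.12 SE, limma adjusted p = 0.00678). Rgmb read 78.1 and 79.1 RPM against 221.3 and 256.4 RPM (log2 fold change 1.59 ± 0.11 SE, limma adjusted p = 0.00665). Bambi, a receptor-like protein without a kinase that blocks signalling, fell (4.80 and 5.20 RPM in LLC, against 1.95 and 1.00 RPM in LLC-Chem, log2 fold change -1.52 ± 0.29 SE, limma adjusted p = 0.0257). None of these 3 genes overlapped between the groups.

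Of 20 testable extracellular regulators, 3 rose and 5 fell. Bgn, a small matrix proteoglycan that binds TGF-β, read 607.6 and 601.4 RPM in LLC, against 157.3 and 146.3 RPM in LLC-Chem (log2 fold change -1.99 ± 0.10 SE, limma adjusted p = 0.00456). Lrrc32, which tethers latent TGF-β to the cell surface, read 42 and 37.8 RPM against 17.4 and 15.7 RPM (log2 fold change -1.25 ± 0.13 SE, limma adjusted p = 0.0114). Both were without overlap. Nrros, which does the same in myeloid cells, and Bmper, a BMP-binding protein of endothelium, also fell (log2 fold changes -0.96 and -0.94, limma adjusted p = 0.0455 and 0.0226). The call of Nrros was lost in 11 of 15 alternative fits, among them TMM and median-of-ratios scaling and edgeR (adjusted p = 0.0594). The leukocyte and endothelial markers, whose sums are given above, were lower as well, and their part was not tested. The BMP-binding proteins Twsg1 (122.7 and 133.1 RPM against 193.9 and 191.3 RPM) and Crim1 (29.8 and 27.0 RPM against 47.2 and 44.3 RPM) rose, as did Itgb8, an integrin subunit that activates latent TGF-β (1.20 and 1.30 RPM against 3.15 and 2.60 RPM). Thbs1, another activator of TGF-β, read 386.5 and 229.5 RPM against 151.0 and 58.8 RPM and was not called (limma adjusted p = 0.0562).

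Of 16 intracellular regulators, Trim33, a ubiquitin ligase that binds Smads, rose from 36.5 RPM in each LLC pool to 50.1 and 53.7 RPM (log2 fold change 0.50 ± 0.10 SE, limma adjusted p = 0.0296), and its call was lost without a trend (adjusted p = 0.053). Pmepa1, a membrane protein that TGF-β induces and that limits its signal, fell (41.0 and 58.7 RPM in LLC, against 18.5 and 16.7 RPM in LLC-Chem, log2 fold change -1.45 ± 0.19 SE, limma adjusted p = 0.0136). Limma and edgeR called none of the other 14, and DESeq2 called 2 of them lower.

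Among 10 testable genes that TGF-β is known to induce, limma called 1 higher and 4 lower, with a median log2 change of -0.32, and edgeR and DESeq2 each called 3 higher and 4 lower. Postn, a matrix protein of activated fibroblasts, read 429.6 and 795.8 RPM in LLC, against 64.5 and 62.0 RPM in LLC-Chem (log2 fold change -3.20 ± 0.28 SE, limma adjusted p = 0.00909). Ctgf, a matricellular protein, read 10.6 and 7.65 RPM against 3.55 and 1.5 RPM (log2 fold change -1.74 ± 0.38 SE, limma adjusted p = 0.0320). Angptl4, which inhibits lipoprotein lipase and also responds to hypoxia, read 157.5 and 154.2 RPM against 51.4 and 54.2 RPM (log2 fold change -1.55 ± 0.09 SE, limma adjusted p = 0.00624). Col1a1, a collagen chain that is also one of the fibroblast markers, fell as well (log2 fold change -1.51, limma adjusted p = 0.0334). The groups did not overlap for these 4 genes.

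Tsc22d1 rose within the same list (140.2 and 122.2 RPM in LLC, against 191.8 and 275.5 RPM in LLC-Chem, log2 fold change 0.81 ± 0.19 SE, limma adjusted p = 0.0372), a call lost without a trend (adjusted p = 0.0665). Fn1, which encodes the matrix protein fibronectin, was not called by limma (2926 and 4274 RPM against 6474 and 7665 RPM, limma adjusted p = 0.0656, edgeR adjusted p = 0.0414), with both LLC-Chem pools above both LLC pools. The fibroblast list held no gene at 0 in all pools, and of its 7 markers limma called Col1a1 and Col1a2 lower and Pdgfra higher, edgeR called 2 lower and 0 higher, with 3 higher at an unadjusted p under 0.05, and DESeq2 called 2 lower and 3 higher. Its part in these values was not tested. Of the 4 testable BMP response genes beside the Id genes and the 3 testable other ligands, limma called none. At an unadjusted p under 0.05, limma had 1 BMP response gene higher and 1 lower and 1 of the other ligands lower, edgeR called 1 BMP response gene higher, and DESeq2 called 1 higher, 1 lower and 2 other ligands lower. Over all 46 members, 12 were higher (26.1%) and 11 lower (23.9%) at an unadjusted p under 0.05 in limma, against 18% and 23.4% of all tested genes.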

How the data were processed

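RNAseq was done on 2 LLC and 2 LLC-Chem pools of 3 tumors each. The authors extracted total RNA with TRIzol, made TruSeq libraries, aligned the read pairs to GRCm38.p4 (mm10) by STAR, used HTSeq to count reads per Ensembl gene, and deposited RPM. Tool versions and the strand setting are not given in the sources used here. The deposited RPM were whole steps of 0.04997, with 99.991 to 100% of values above 0 within 0.01 of a whole step, from which a scaling to one common total, rounded up, was inferred. Library totals (28470000 to 33990000 reads) were fitted from the histogram of low values, and reads per gene were recovered from them. Pools of a group differed by far more than counting error (chi-square per gene 65.9 for LLC and 26.9 for LLC-Chem), so none was the same library deposited again. The lists of members, other pathway genes and markers were chosen with earlier results of these data known.

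As RPM are not counts, log2(RPM + 0.5) was tested with limma 3.58.1 (lmFit, eBayes with trend, two-sided) in R 4.3.3 over all 4 pools, and p-values were adjusted by Benjamini-Hochberg over the 13694 genes whose mean reached 1 RPM. Of the 53 members 46 passed this filter, and Bmp5, Gdf5, Gdf6, Bmpr1b, Nog, Smad9 and Id4 did not. A filter on the mean lets genes pass through the group where they are high. Values in every pool are given for called members, for tested members whose groups do not overlap, for the member of each role with the highest level per length, and for most genes compared within a family. Lengths are merged exons of GENCODE M21 (GRCm38), matched by Ensembl ID. Member promoters are RefSeq entries outside chromosome 18, matched by symbol (39 of 53 members). Alternatives were pseudocounts of 0.1 and 1, TMM and median-of-ratios scaling, no filter, a mean of at least 5 RPM, no trend, a replicate block, edgeR 4.0.16 (quasi-likelihood) and DESeq2 1.42.0 on recovered reads, and leaving out each pool. Single values of some listed pathway genes are not reported here. Scripts were tested on simulated data. Summaries used Python 3.11.15.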

Additional observations from a re-analysis of the deposited data

How the results depend on the processing

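Over 66 genes, the 46 tested members and 20 other pathway genes, 812 alternative values kept their sign and side of the threshold, 204 lost their call, 13 gained one and 19 changed sign, none of these among called genes. Smad4 turned to 0.04 with TMM scaling, 0.03 with median-of-ratios scaling, 0.04 with edgeR with and without the replicate block and 0.03 with DESeq2, and Smad7 to 0.02, 0.01, 0.02 and 0.01. With a pool left out in turn, the log2 changes ran from -0.05 to 0.03 for Smad4, -0.17 to 0.12 for Smad7, -0.26 to 0.08 for Tgfb3, -0.19 to 0.02 for Acvr1b, -0.09 to 0.20 for Ltbp1 and -0.05 to 0.40 for Id2. Bmp4, Inhbb, Tgfbr3, Bmpr1a, Fst, Grem1, Ltbp3 and Id3 lost their calls only when all genes above 0 were tested and when a pool was left out. With any 1 pool left out, limma called from 0 to 0 genes higher and from 0 to 0 lower, among all genes, among members in every role and among the other pathway genes. In these fits, which have fewer samples, 8 to 11 members were higher and 5 to 15 lower at an unadjusted p under 0.05. With all genes above 0 tested, limma called 1 gene higher and 0 lower, and 0 members or other pathway genes, against 12 members higher and 8 lower of 52 at an unadjusted p under 0.05, while edgeR and DESeq2 were not run on this set.

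The labels share replicate numbers between the groups, but nothing says that the numbers mark a shared batch, and the deviations of same-numbered pools had a correlation of -0.14. With the replicate block, limma called 549 genes higher and 1064 lower, 6 members higher and 5 lower, 1 ligand higher and 2 lower, 0 Smads higher, 0 latent binding proteins lower, and 4 other pathway genes higher. With edgeR and the replicate block there were 508 genes higher and 733 lower, 5 members higher and 3 lower, 1 ligand higher, 0 receptors lower, 1 latent binding protein higher and 0 lower, 0 Smads higher and 3 other pathway genes higher. Inha, Gdf11, Bmpr2, Ltbp2, Smad3, Itgb8, Nrros, Trim33, Tsc22d1 and Col1a1 lost their calls with the replicate block in both limma (adjusted p from 0.0522 for Gdf11 to 0.0932 for Bmpr2) and edgeR (from 0.0518 for Gdf11 to 0.108 for Nrros). Acvrl1, Ltbp4, Bambi, Twsg1 and Bmper did so in edgeR alone (0.0518 for Ltbp4 to 0.0652 for Bambi). Thbs1 gained a call in both (0.0215 and 0.0323) and Gdf15 in limma (0.0402). The block leaves fewer residual degrees of freedom. With the pairing crossed, an alternative added after seeing the data, limma called 1579 genes higher (11.5%) and 2320 lower (16.9%), 9 members higher and 8 lower, and 3 ligands lower.

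On the recovered reads, edgeR called 1551 genes higher and 1600 lower and DESeq2 called 1876 and 2271. DESeq2 called 8 members lower, 2 ligands lower, 1 target lower and 11 other pathway genes higher. Without the trend Inha, Bmpr2, Smad3, Ltbp2, Nrros, Trim33 and Tsc22d1 lost their calls, so that 0 latent binding proteins were lower and 0 Smads higher, and with edgeR 0 latent binding proteins were lower. The cause of these differences was not tested. At this depth 3 reads stand for about 0.1 RPM, the level of Nog, and the level below which depth limits a call was not tested.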
